A study of Mus musculus with 2 samples.

Results

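Zmiz1 and Zmiz2 are a pair of paralogous transcriptional coactivators, and the peaks described here are the 55 of 21192 sites of N4-acetylcytidine (ac4C) enrichment whose summit lay inside the span of either gene. Zmiz1 held 44 of them and Zmiz2 held 11. The genes were chosen with the peak list known, so their numbers of peaks are a description and carry no test. The list comes from acRIP-seq, in which an antibody against ac4C (cytidine carrying an acetyl group) enriches the fragments that bear it, and these are sequenced together with unenriched RNA. PolyA RNA came from whole uterus of wild-type mice at gestational day 4, with 1 immunoprecipitation library and 1 input control library. How many animals gave the RNA, and their age, were not given in the sources used here. With 1 library of each kind, no value below has a replicate check.

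ZMIZ1 (also Zimp10) and ZMIZ2 (also Zimp7) share a MIZ-type zinc finger with the PIAS family of SUMO ligases, enzymes that help to attach the small protein SUMO to other proteins. Both are known as coactivators of sequence-specific transcription factors, among them Notch1 for ZMIZ1 in developing T cells. On mRNA, ac4C is written by the acetyltransferase NAT10.

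The authors' peak caller gave each peak a fold enrichment, its signal at the summit divided by a background. It was used here only to describe and rank peaks of this list. The number of immunoprecipitated fragments at each summit was recovered from the deposited values, and each fold enrichment is followed by a 95% interval, from the exact Poisson limits of that number. It covers counting error only, with the background taken as known. Over all peaks the median fold enrichment was 5.58 (interquartile range 4.33 to 7.38) on a median of 22 fragments, and the median width was 315.5 bp. In RNA of a whole tissue, a modified transcript of few cells and a weakly modified transcript of many cells cannot be told apart. The marker genes named next were listed with earlier results of these data known, so they describe the list and are no independent check of the tissue. Of 10 uterine marker genes, 10 held a peak (95% Wilson interval 72.2 to 100%), against 30.7% of all protein-coding genes. The highest were those of Ihh, Hand2 and Sox17. Of 6 markers of ovary, oviduct or embryo, 1 held a peak, namely Amh on 6 fragments, and its interval (3.01 to 56.4%) includes the share of all genes. A peak shows enrichment, not the level of the transcript.

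The spans of the paralogues differed in length by a factor of 12, and their numbers of peaks by a factor of 4. Zmiz1 (NCBI gene 328365) runs on chromosome 14 from 25457875 to 25666743 (GRCm38), which is 209 kb, on the plus strand. Zmiz2 (NCBI gene 52915) runs on chromosome 11 from 6388799 to 6406162, which is 17.4 kb, and its strand was not given in the tables used here. Zmiz1 therefore held 2.11 peaks per 10 kb of span and Zmiz2 6.33, a density 3.01 times as high. Peaks covered 8.21% of the Zmiz1 span and 36.0% of the Zmiz2 span. Exons were not told from introns, so these densities are per genomic length and not per length of mRNA. For scale, 30.7% of protein-coding genes held at least 1 summit and 1.37% held at least 10. Both members were chosen from the list, so nothing is read from their place in that 1.37%.

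The paralogues also differed in the height and width of their peaks. The median fold enrichment was 5.11 over the 44 peaks of Zmiz1 (range 2.54 to 13.0) and 12.3 over the 11 peaks of Zmiz2 (range 5.81 to 16.7). All 11 peaks of Zmiz2 stood above the median of Zmiz1, and 4 of them stood above its highest peak. The ranges nevertheless overlapped. The ratio of the medians, 2.41, was 1.23 among peaks no lower than the median of the list, and 1.22 among those whose −log10 q reached 10. A fold enrichment of at least 8 was reached by 12 of the 44 peaks of Zmiz1 (27.3%) and by 9 of the 11 peaks of Zmiz2 (81.8%), against 19.6% of all peaks. A −log10 q of at least 10 was reached by 16 peaks of Zmiz1 (36.4%) and 10 of Zmiz2 (90.9%), against 45.2% of all peaks. Peaks of 500 bp or more made up 6 of 44 in Zmiz1 (13.6%) and 6 of 11 in Zmiz2 (54.5%), against 23.0% of the list. The median width was 327.5 bp in Zmiz1 and 548 bp in Zmiz2. No test of these differences was made, since peaks of 1 gene in 1 library are not replicates.

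**Figure D1:**
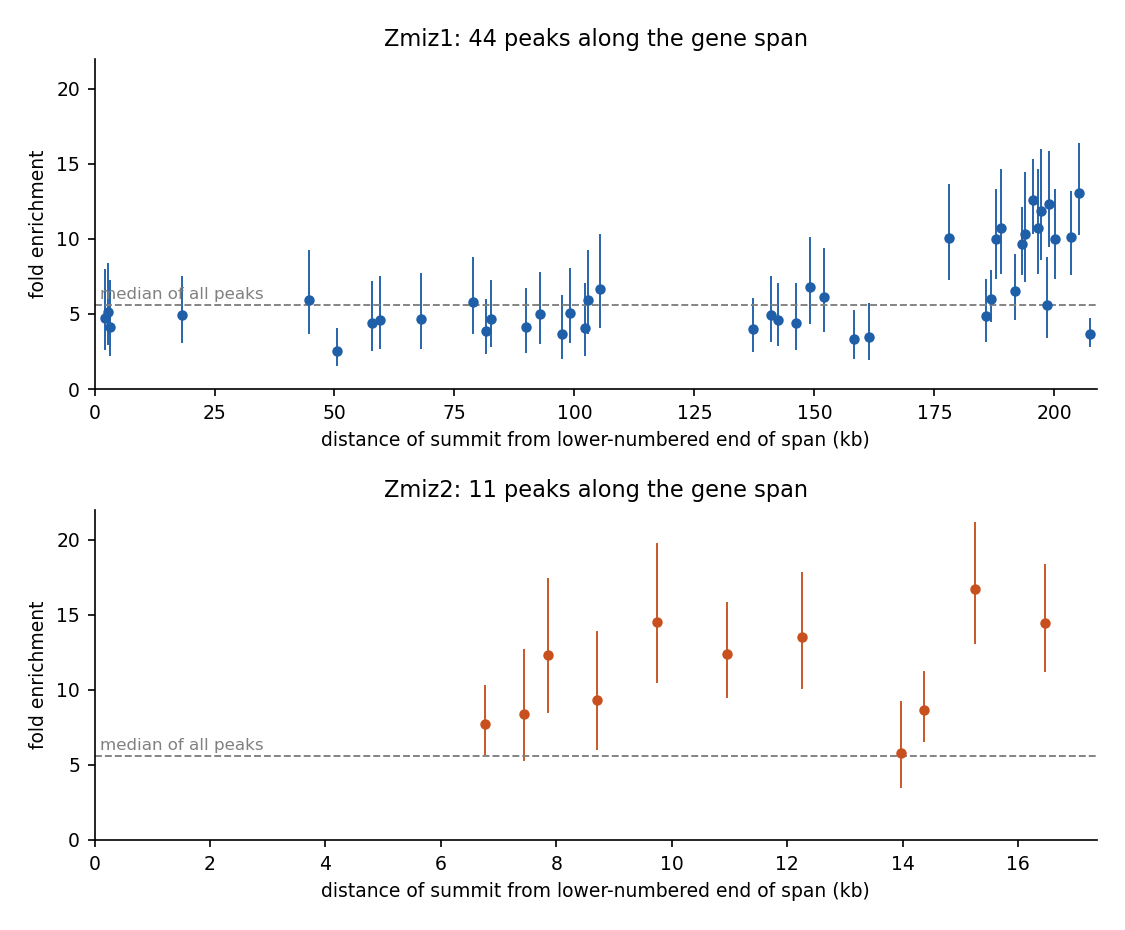
Fold enrichment of each peak of Zmiz1 (upper panel) and Zmiz2 (lower panel) against the distance of its summit from the lower-numbered end of the gene span, in kb, on axes of different length. Points are single peaks, bars are 95% Poisson intervals of counting error, and the dashed line is the median of all peaks, 5.58; the high peaks of Zmiz1 crowd into the last 30.9 kb, while those of Zmiz2 begin 6767 bp into the span.

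Along Zmiz1, peaks fell into a long stretch of low peaks and a short stretch of high ones. The first 27 peaks, counted from the 5′ side, lay in the 178 kb before the summit of peak 28, at 1.52 per 10 kb. That length includes 16559 bp without a summit after peak 27. Their median fold enrichment was 4.64 (2.54 to 6.78). The last 17 peaks lay within 30.9 kb of the 3′ end at 5.50 per 10 kb, with a median of 10.1 (3.68 to 13.0). This boundary was set after the values were seen, so the contrast has no test. Of the 17 later peaks, 12 stood above the highest of the 27 earlier ones, and 15 rested on more fragments than any of them. The 5 exceptions in height were the peaks at 4.89, 6.0, 6.51, 5.61 and 3.68.

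The low stretch was shallow as well as weakly enriched. Its peaks rested on 10 to 22 fragments with a median of 17, and 26 of 27 had fewer fragments than the median peak of the list. In the later stretch the number ran from 17 to 100 with a median of 44. The background differed less, with a median of 2.39 fragments in the first stretch and 3.50 in the second. At the background of the first stretch (1.67 to 5.69 fragments), the 9730 peaks of the whole list had a median of 5.66, and 6 of the 27 Zmiz1 peaks exceeded it. Peaks 28 to 43 of Zmiz1 had backgrounds of 2.2 to 7.0 fragments. In that range the 8235 peaks of the list had a median of 5.33, which 15 of the 16 exceeded. Peak 44, the lowest of the stretch at 3.68, was left out here, with a background of 15.3 fragments. It held 59 fragments, against a median of 56 in peaks of the list with backgrounds of 12 to 20. A −log10 q of at least 10 was reached by 1 of the first 27 peaks and by 15 of the last 17.

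The first peaks of Zmiz1 lay just inside the gene. The RefSeq start site of the transcript with a listed promoter is at 25459185, and the first summit lay 776 bp downstream of it, in a peak from 25459812 to 25460028. Its fold enrichment was 4.73 (2.62 to 7.98) on 12 fragments. Peaks touching the promoter window, from 250 bp before that start site to 50 bp after it, numbered 0. A further peak lay 1022 bp before the span, at 5.56 (2.65 to 10.7) on 7 fragments, and was not counted. After 3 peaks within 1122 bp of each other, spacing widened to 14964 and then 26591 bp. The longest stretch without a summit was 32062 bp, between peaks 19 and 20. The long non-coding RNA genes Gm32497 and 4931406H21Rik lie in that gap, and both held 0 summits.

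The highest peaks of Zmiz1 were all near its 3′ end. The highest, also the widest of both genes, ran from 25662771 to 25664728 (1958 bp) and stood at 13.0 (10.2 to 16.4) on 72 fragments. Next came the peak from 25653155 to 25653532 at 12.6 (10.3 to 15.3), which rested on 100 fragments, the most of any peak in either gene. The peak from 25656565 to 25656945 stood at 12.3 (9.47 to 15.8) on 60 fragments. These 3 intervals overlapped, so their order is not settled by the counts. The peak from 25651058 to 25651380 also had 72 fragments, at 9.65 (7.58 to 12.1). The last peak of the gene, from 25665104 to 25665901, was unlike its neighbours. It stood at 3.68 (2.81 to 4.72) although it held 59 fragments, since its background of 15.3 fragments was the highest of all 55 peaks. Its interval lay wholly below those of the 2 peaks before it.

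Other genes of the table lie inside the Zmiz1 span, and 7 of the 44 summits fell in one of them. The list gives no strand, so reads of these genes were not separated from those of Zmiz1. Gm52102, a long non-coding RNA gene on the opposite strand from 25651985 to 25661267, held 6 summits, with fold enrichments of 5.61 to 12.6. It thus shared the peak with the most fragments. The protein-coding gene Gm45915 held 1 summit, at 4.37. Counted without that peak, Zmiz1 has 43. In Zmiz2, 0 of 11 summits lay in another gene.

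In Zmiz2 all peaks lay in the higher-numbered part of the span. The first 6767 bp held 0 summits, and the 11 summits then followed within 9692 bp, a density of 11.3 per 10 kb. The largest distance between neighbouring summits was 1709 bp. The peak nearest to the lower end, from 6395396 to 6395862, stood at 7.74 (5.67 to 10.3) on 44 fragments. The next, from 6396138 to 6396389, stood at 8.38 (5.27 to 12.7) on 20 fragments. The peak from 6396517 to 6397185, reached 12.3 (8.45 to 17.4) on 30 fragments. These 3 intervals overlapped, so no rise along the gene is shown by them.

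The middle of the run held high peaks beside lower ones. The peak from 6397343 to 6397667 stood at 9.34 (6.01 to 13.9) on 22 fragments. Then came 3 wider peaks. Those from 6398067 to 6398713 and from 6399376 to 6399923 stood at 14.5 (10.4 to 19.7) and 12.3 (9.47 to 15.8), on 39 and 60 fragments. The peak from 6400586 to 6401348 stood at 13.5 (10.04 to 17.8) on 48 fragments. All 3 had lower bounds above the median fold enrichment of the list.

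The last 4 peaks held both the lowest and the highest of the gene. The lowest, from 6402614 to 6402826, was also the narrowest at 213 bp and stood at 5.81 (3.47 to 9.22) on 16 fragments. Only 408 bp farther on, the peak from 6402953 to 6403385 stood at 8.64 (6.51 to 11.2) on 53 fragments. The highest peak of either gene ran from 6403625 to 6404322, at 16.7 (13.0 to 21.2) on 67 fragments over a background of 3.06. The last peak, from 6404807 to 6406039, was the widest of Zmiz2 at 1233 bp and stood at 14.4 (11.2 to 18.4) on 64 fragments. It ended 123 bp before the end of the span. The interval of the highest peak overlapped that of the highest peak of Zmiz1 (10.2 to 16.4), so the 2 maxima are not told apart by their counts. At the backgrounds of Zmiz2 (1.46 to 5.25 fragments), the whole list held 9729 peaks with a median of 5.78 and an 75th percentile of 7.55. Of the 11 peaks, 11 exceeded that median and 10 exceeded the 75th percentile.

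**Figure D2:**
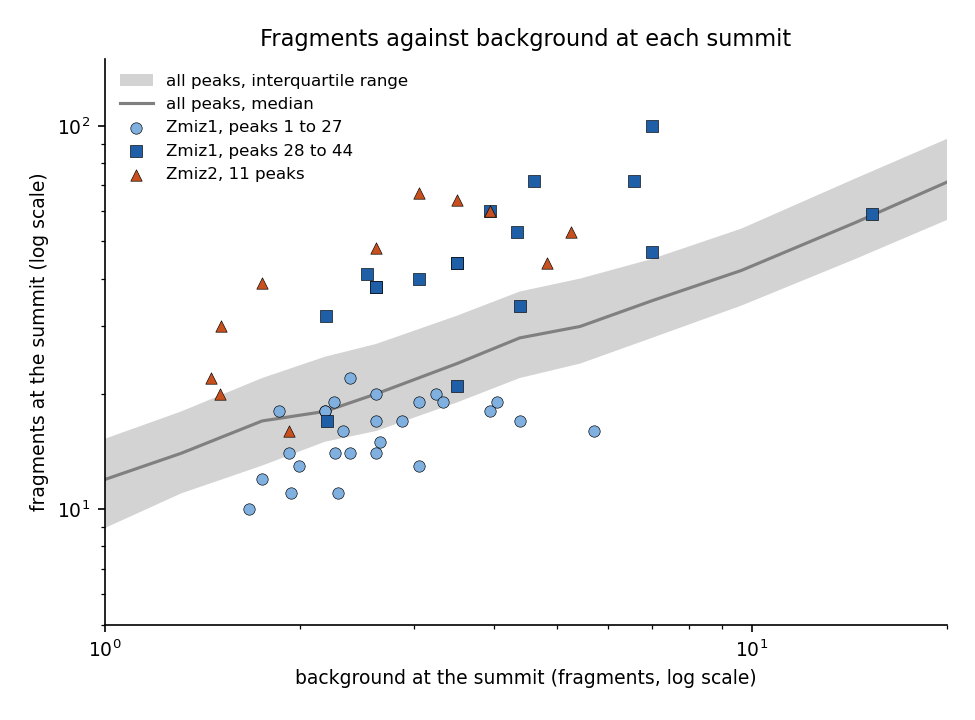
Fragments at the summit against background at the summit, both in fragments on log axes, for the 27 first and 17 last peaks of Zmiz1 and the 11 peaks of Zmiz2; the line and band are the median and interquartile range of all peaks in bins of background. The first 27 peaks of Zmiz1 hold 10 to 22 fragments (median 17) and the 11 peaks of Zmiz2 hold 16 to 67 (median 44), so the ranges overlap.

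Since the spans differ so much in length, the last 17364 bp of Zmiz1, a window as long as the whole of Zmiz2, was set beside Zmiz2. The window, chosen after the peaks were seen, runs from 25649380 to 25666743. It makes up 8.31% of the Zmiz1 span and held 12 of its 44 peaks (27.3%). On this equal length the paralogues lay close together, with 12 and 11 peaks. Peaks covered 35.3% of the window and 36.0% of Zmiz2. The median fold enrichment was 10.2 in the window and 12.3 in Zmiz2, a factor of 1.21 in place of 2.41 over the whole genes. The median number of fragments was 48.5 and 44, and the median background 4.14 and 2.63 fragments. Fold enrichments of at least 8 numbered 9 of 12 and 9 of 11. Widths still differed, with medians of 343 and 548 bp. The remaining 192 kb of Zmiz1 held 32 peaks at 1.67 per 10 kb, with a median fold enrichment of 4.81. Of the 12 peaks of the window, 6 lay in Gm52102 as well as Zmiz1, and the number fell to 6 without them, while that of Zmiz2 stayed at 11.

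**Figure D3:**
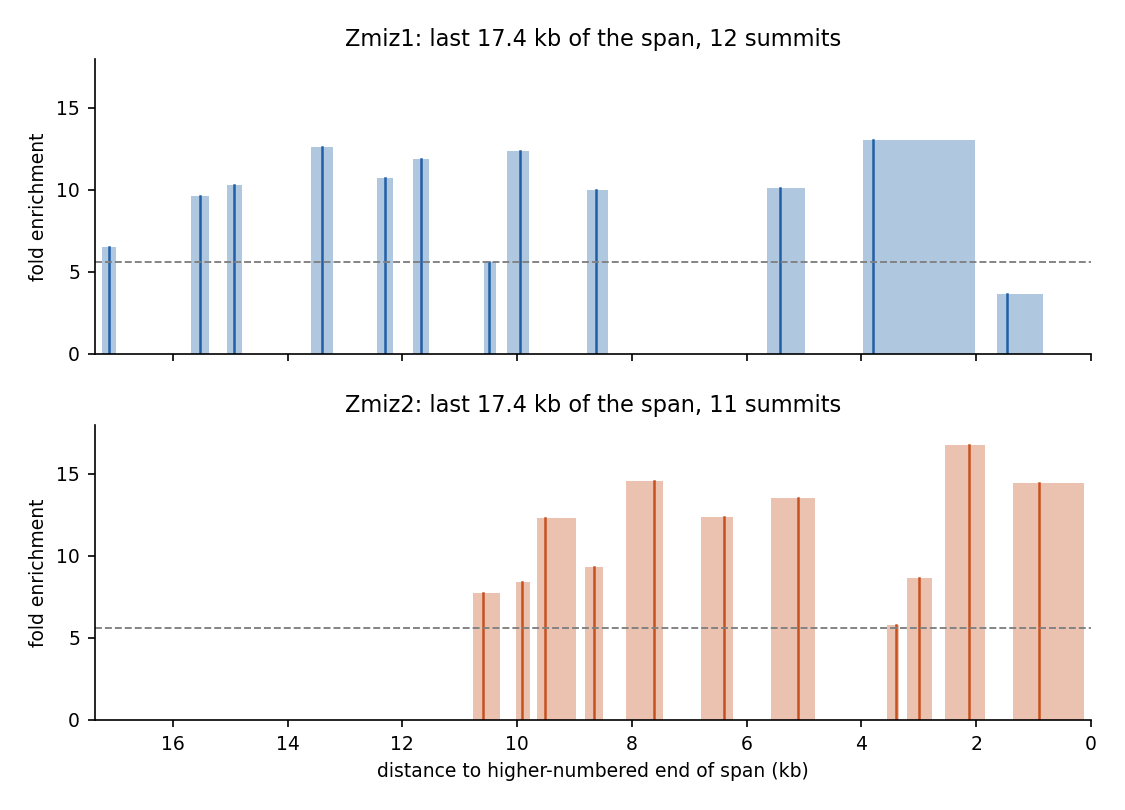
Peaks in the last 17.4 kb of the Zmiz1 span and in the whole Zmiz2 span, drawn to the same scale against the distance to the higher-numbered end of the span in kb. Each block spans a peak's width and reaches its fold enrichment, the dark line marks the summit and the dashed line the median of all peaks; 12 summits lie in the Zmiz1 window and 11 in Zmiz2, where the first 6767 bp are empty.

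Spacing followed the same division. Neighbouring summits were a median of 2690 bp apart in Zmiz1 (321 to 32062 bp) and 956.5 bp apart in Zmiz2 (408 to 1709 bp). In Zmiz1, 8 of 43 spacings were 1 kb or less and 11 were 5 kb or more. In Zmiz2, 5 of 10 were 1 kb or less and 0 were 5 kb or more. Within the last 17 peaks of Zmiz1 the median spacing was 1258 bp, and within the first 27 it was 3136.5 bp. By 4 equal parts of the span, from the lower-numbered end, Zmiz1 held 6, 12, 7 and 19 summits and Zmiz2 held 0, 3, 4 and 4. The median fold enrichment of these parts was 4.82, 4.61, 4.94 and 9.996 in Zmiz1, and 8.38, 12.9 and 11.5 in the last 3 of Zmiz2.

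Each paralogue also has a miRNA gene inside its span, and the mature sequences are shown because they are the transcribed parts of both spans with a sequence in the RefSeq tables used (GRCm38.p6). Capitals mark the seed, bases 2 to 8 from the 5′ end.
mmu-miR-3075-3p: aUCCUUGGccuuccuaggugu
mmu-miR-7651-5p: aAGUGGAAagccagccugagau
mmu-miR-7651-3p: uCAGUUUGguuuuuuuccccuuga
The first comes from Mir3075 in Zmiz1 (chromosome 14, 25534439 to 25534523, plus strand), and the nearest peak lay 2038 bp away. The other two come from Mir7651 in Zmiz2 (chromosome 11, 6401630 to 6401693, plus strand), 282 bp from the nearest peak. The 3 seeds differ. Neither hairpin was touched by a peak, although Mir7651 lies between neighbouring peaks of Zmiz2, the seventh and the eighth.

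Zmiz1 ranked at place 5 in number of peaks among the 6717 protein-coding genes with a summit, while Zmiz2 shared its number of 11 with 45 other genes. Genes with overlapping spans share peaks in these counts. Among genes with a peak and a span of 0.5 to 2 times its own, Zmiz1 was at place 3 of 984 in number, where the median was 2 peaks and the highest number 69. Zmiz2 was at place 34 of 2504 in its own class, where the median was also 2 and the highest 21. In median fold enrichment the order of the paralogues was the other way. Among the 299 genes with at least 10 peaks, Zmiz2 stood at place 1 and Zmiz1 at place 215, and the median gene had 5.76. In peaks per 10 kb Zmiz2 stood at place 19 and Zmiz1 at place 152 of the 299. With genes of at least 5 peaks, Zmiz2 was at place 2 of 1256, behind Shroom3 at 13.5. Limited to peaks with a −log10 q of at least 10, it was at place 2 of the 75 genes that kept 10 of them, with Zmiz1 at place 8. Among the 416 genes that kept at least 5 of them, Zmiz2 was at place 8 and Zmiz1 at place 32. These ranks are descriptions of 1 library.

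**Figure D4:**
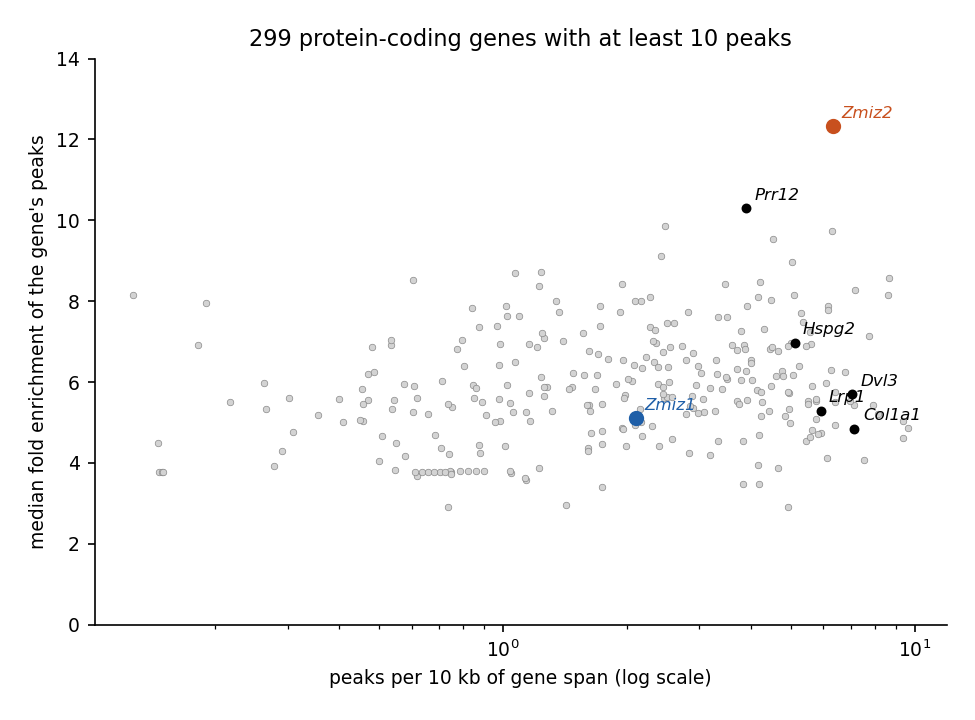
Median fold enrichment of a gene's peaks against its number of peaks per 10 kb of span (log axis) for the 299 protein-coding genes with at least 10 peaks, 1 point per gene. Zmiz2 stands highest, at 12.3 and 6.33 peaks per 10 kb, and Zmiz1 lies among the bulk of genes at 5.11 and 2.11.

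Genes with numbers of peaks like those of the members did not all share their heights. Nearest above Zmiz1 were Lrp1, an endocytic receptor, with 49 peaks, Hspg2, the basement membrane proteoglycan perlecan, with 52, and Hmcn2, a hemicentin, with 57. Their median fold enrichments were 5.29, 6.98 and 6.27. Nearest below, among the genes reported here, were the receptor phosphatase gene Ptprs with 39 and the fibronectin gene Fn1 with 37, at 5.98 and 4.53. Zmiz1 at 5.11 lay within the range of these 5 genes. For Zmiz2 the nearest in number and span were Dvl3, of Wnt signalling, the collagen gene Col1a1 and the autophagy gene Atg2a, with 12 peaks each, and Zswim8, Slc4a2 and Trim11 with 10 each. Their spans ran from 16.8 to 20.8 kb and their median fold enrichments from 4.71 to 5.69, against 12.3 in Zmiz2.

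The rise toward the 3′ end of Zmiz1 was set beside other genes of known strand with at least 20 peaks. The last 25% of its span held 43.2% of its peaks, close to the median of these 34 genes, 43.8%. The median fold enrichment was 9.996 there and 4.67 in the rest, a ratio of 2.14. Of the 34 genes, this ratio was highest in Zmiz1, followed by Gse1 at 1.63, and the median gene had 1.09. Among the 34, a ratio above 1 was found in 18 of the 19 genes with a span of at least 100 kb, Zmiz1 among them. The median ratio of those 19 was 1.17. The median share of peaks in the last 25% was 52.4% in those 19, and Zmiz1 was at place 13 in that share. With genes of at least 10 peaks Zmiz1 was at place 3 of 229, behind Zswim8 at 2.22 and Lrp2 at 2.2. Zmiz2 was not ranked, for want of a strand. This comparison was chosen after the pattern was seen.

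Genes of the PIAS and SUMO system, to which the MIZ zinc finger links both members, held 0 to 4 peaks each. A summit was found in 9 of the 15 reported here (60%, 95% Wilson interval 35.7 to 80.2%), against 30.7% of all protein-coding genes. These genes were listed with earlier results known and are no random sample, so the interval carries no test. The share of all genes was not matched to them for span or level of transcript, and no enrichment of the pathway is read from it. Genes of the list with a summit had a median of 1 peak, against 2 over all genes with a summit. Among the ligases, Pias3 and Pias4 held 4 peaks each, with highest fold enrichments of 7.27 (4.52 to 11.1) and 7.09 (4.46 to 10.8). Pias1 held 2, with 5.91 (3.83 to 8.74), and Pias2 held 1, at 3.12 (2.05 to 4.59). All 4 upper bounds lay below the lower bound of the highest Zmiz2 peak, 13.0. All 4 intervals overlapped that of the lowest Zmiz2 peak (3.47 to 9.22), however. The highest values of Pias1, Pias3 and Pias4 also exceeded the median of Zmiz1, 5.11. The highest value of the list was that of the SUMO protease gene Senp6, at 7.31 (4.43 to 11.5). Among these 15, the genes with 0 summits were Sumo2, which encodes a SUMO protein, the activating enzyme genes Sae1 and Uba2, and the protease genes Senp2, Senp5 and Senp7. At this depth enrichment in them was not detectable, which does not show that it is absent.

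Genes of proteins known to bind the ZMIZ proteins or to be coactivated by them held peaks in 8 of the 8 reported here (95% Wilson interval 67.6 to 100%), 52 peaks in all, against 30.7% of all protein-coding genes. The list was drawn up with earlier results of these data known and is no random sample, so the interval carries no test. The share of all genes was again not matched for span or level of transcript. Smarca4, the ATPase of the SWI/SNF chromatin remodelling complex, held 15 peaks with a highest fold enrichment of 16.5 (13.0 to 20.8). Notch1 held 16, with 13.98 (9.85 to 19.3). Smad3, a signal transducer of TGF-beta receptors, held 5 peaks over 111 kb, with 6.40 (4.23 to 9.33). The intervals of Smarca4 and Notch1 overlapped that of the highest Zmiz2 peak, and that of Smad3 did not. The other 5 (Rbpj, Smad4, Trp53, Smarce1 and Ctnnb1) held 1 to 5 peaks each, with highest values of 3.28 to 6.22.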

How the data were processed

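The submitters' processing notes name HISAT2 2.2.1, MACS3 3.0.0a7 and the build mm10, which is GRCm38. Per the labels, a strand-keeping library kit was used. The authors deposited 1 peak list without a header, holding for each peak a score, a fold enrichment (a ratio), and its p-value and q-value as −log10. Filters, and whether the input served as background, were not given in the sources used here. The largest q was 0.0499. Peaks were assigned by summit to gene spans of a RefSeq table (GRCm38.p6, 21900 protein-coding genes). For each peak the whole number of fragments f and background b were sought for which the fold enrichment is (f + 1)/(b + 1) and the p-value is the Poisson probability of more than f. A match was found for 21192 of 21192 peaks, and on simulated data 100% of 1999 were returned. Read totals were not used. Shares carry 95% Wilson intervals. PCR copies were not separated, so the intervals of fold enrichment cover counting error only.

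Members, gene lists and comparisons were chosen with earlier results of these data known. Peaks of Zmiz1 described singly were the 3 highest, the 3 with most fragments, the widest, the first and the last. All peaks of Zmiz2 were described. From the pathway and partner lists the 3 highest genes and the PIAS genes were named, with those holding no peak, and the 3 highest uterine markers. Also named were the 3 genes nearest above and below each member in number of peaks (ties by span). Alternatives changed the threshold, the assignment rule, the span and the merging of peaks. No p-values were calculated. Python 3.11.15, pandas 2.3.3 and scipy 1.17.1 were used. Peak and exon sequences were not analysed here. Some genes of the lists and of the nearest genes are not reported here.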

Additional observations from a re-analysis of the deposited data

How the results depend on the processing

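Of 140 values under 9 alternatives, 124 stayed and 16 moved. A count or density stayed if within 1.5 times the number reported, any other value if within the interval of the reported value. For a median, that interval came from the ranked values of the gene's own peaks, which are not replicates. The median spacing of Zmiz1, 2690 bp (1554 to 3204), so stayed at 1588 and 1606.5 bp under the q and fold thresholds. The limits of at least 10 fragments and of any overlap of 1 bp changed no peak, so all their values stayed. A −log10 q of at least 10 left 16 peaks in Zmiz1 (0.766 per 10 kb, median fold enrichment 10.1), 5 of them before the end window (median 9.996). Of the first 27 peaks only 1 was kept, at 6.78, and the rest of those 5 belong to the last 17 peaks of the gene. Keeping peaks of at least the list's median fold enrichment left 21 in Zmiz1 (1.01 per 10 kb, median 9.996), 10 of them before the window (median 6.40). Both follow from removing weak peaks, and Zmiz2 kept 10 and 11. Without summits in any other gene the end window held 6 peaks. With 5 kb added at both ends, the density of Zmiz2 was 4.02 per 10 kb. With summits within 1 kb merged, Zmiz2 held 6 groups (3.46 per 10 kb, median width 998 bp) and the median width of Zmiz1 was 393.5 bp. The median fold enrichment of Zmiz2 over that of Zmiz1, 2.41, fell to 1.22 and 1.23 under the q and fold thresholds and ran from 2.196 to 2.73 under the other 7. The density ratio, 3.01, ran from 1.96 to 7.52. Values for the end window, and the limit to summits in no other protein-coding gene, were added after the data were seen. The fragments at a summit limit all heights: at 10 to 22 fragments, most low peaks of Zmiz1 are not ordered, since their intervals overlap. Only the interval of the lowest, at 2.54 (1.52 to 4.03), lay wholly below those of the peaks at 6.65 (4.09 to 10.3) and 6.78 (4.36 to 10.1).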

Other observations

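In median fold enrichment, the gene next to Zmiz2 among those with at least 10 peaks was Prr12, at 10.3. Limited to peaks over 200 bp wide, Setd1b, a histone H3 methyltransferase gene, stood at 10.3, against 12.3 in Zmiz2. Limited to a −log10 q of at least 10, Zmiz2 was not first but at place 2 of 75 genes, at 12.3, followed by Tnrc18 at 11.4. These genes were named after their values were seen.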
